A study of Rattus norvegicus with 6 samples.

Results

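The Zfp genes are a set of rat genes named for the zinc finger protein they encode, and 221 of the 18286 genes in the deposited expression table belong to it. They were taken by symbol, as Zfp followed by a number alone, with Zfp36 left out because its product is an RNA-binding protein of another class. Of the 221 genes, 158 averaged 1 RPKM or more across the 6 libraries and were tested, and 63 lay below that filter. RPKM is a read number divided by the exon length of the gene and by all reads assigned to genes in that library. A shared name is not a shared function, and the set holds DNA-binding repressors beside factors of splicing, ubiquitin ligation and cell division.

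RNA-seq was done on RBL-2H3, a basophilic leukemia line from rat that serves as a stand-in for mast cells. One group of 3 libraries is control cells, whose treatment is labelled none, and the other group of 3 is cells given DHC, dihydrocoumarin, a plant lactone. The protocol given for all 6 samples sensitizes cells for 12 h with 50 ng/ml IgE against DNP and then stimulates them for 4 h with 100 ng/ml DNP-HSA. It gives no dose or time for DHC, and whether the controls also received IgE and antigen cannot be told from it. Separate cultures are stated for no replicate, so each p-value is set by the scatter of these 6 libraries alone and that scatter may be technical. RBL-2H3 is a single established tumour line, and no primary mast cells are in the series. The labels call its tissue peripheral blood and its cell type blood corpuscle.

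Each library held between 29084976 and 34170922 reads assigned to genes. At these depths 3 reads are worth at most 0.103 RPM, a limit that covers counting error only. Of 10 mast cell and basophil markers, 9 had a row and 8 were tested, with a summed level of 1020 to 1050 RPKM in control and 705 to 731 RPKM in DHC libraries. Gata2 (344.6 and 69.9 RPKM), Kit (114.7 and 64.5 RPKM), Il1rl1 and Hdc fell and Ms4a2 rose (320.9 and 368.5 RPKM), while Fcer1a (106.7 and 109.8 RPKM), Cpa3 (17.5 and 20.7 RPKM) and Fcer1g (31.8 and 30.7 RPKM) did not pass the test. The tryptase gene Tpsb2 averaged 0.0168 RPKM in control libraries and was at 0 in DHC libraries. The part of this shift in the values of the Zfp genes was not tested. Of the T cell markers, Cd3e stood at 34.6 and 41.8 RPKM in control and DHC libraries, while Cd3d and Cd3g stayed under 0.2 RPKM. Markers of B cells, macrophages, neutrophils, red cells and fibroblasts with a row all stayed below 0.6 RPKM in group means. In bulk RNA, a change in the number of cells that carry a transcript and a change in RNA per cell cannot be told apart.

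Most zinc finger proteins of this kind carry a row of C2H2 fingers, small loops held by a zinc ion that together read a stretch of DNA. Many of them also carry a KRAB box, which recruits the scaffold protein TRIM28 and, through it, histone methyltransferases, heterochromatin proteins and histone deacetylases, so that the bound site is silenced. KRAB zinc finger genes arose by repeated local duplication, lie in clusters, and many of them hold transposable elements silent. Members without a KRAB box include activators of transcription, cofactors of chromatin complexes and proteins that bind RNA. Reads from closely related members can be hard to assign, so single values of recent duplicates are uncertain.

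Of the 221 genes, 177 had a promoter in the RefSeq table of the assembly GRCr8, and 155 of these had a single entry. Each window runs from 250 bases before to 50 bases after the annotated start. The 3 windows below belong to Zfp426, Zfp266 and Zfp367. Zfp426 and Zfp266 are neighbouring members of the set and were both called higher with DHC. Neither of these calls held when each library was left out in turn. Zfp367 was second to Zfp30 in its rise on the log2(RPKM + 1) scale, though not by ratio of means. Capitals mark every match, on either strand, to 10 short motifs described beneath.

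Zfp426, chr8:27305008-27305307, minus strand: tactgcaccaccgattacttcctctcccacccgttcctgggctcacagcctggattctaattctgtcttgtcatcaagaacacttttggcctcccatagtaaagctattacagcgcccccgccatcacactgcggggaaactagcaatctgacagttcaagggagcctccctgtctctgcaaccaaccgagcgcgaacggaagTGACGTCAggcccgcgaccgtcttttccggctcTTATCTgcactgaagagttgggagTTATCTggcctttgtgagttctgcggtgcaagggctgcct
Zfp266, chr8:27337490-27337789, minus strand: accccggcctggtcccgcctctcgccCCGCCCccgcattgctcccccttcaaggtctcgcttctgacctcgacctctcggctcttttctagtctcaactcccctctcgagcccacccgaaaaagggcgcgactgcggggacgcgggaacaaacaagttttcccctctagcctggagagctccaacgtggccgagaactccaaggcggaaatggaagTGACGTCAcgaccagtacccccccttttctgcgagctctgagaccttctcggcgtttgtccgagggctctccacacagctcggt
Zfp367, chr17:970646-970945, plus strand: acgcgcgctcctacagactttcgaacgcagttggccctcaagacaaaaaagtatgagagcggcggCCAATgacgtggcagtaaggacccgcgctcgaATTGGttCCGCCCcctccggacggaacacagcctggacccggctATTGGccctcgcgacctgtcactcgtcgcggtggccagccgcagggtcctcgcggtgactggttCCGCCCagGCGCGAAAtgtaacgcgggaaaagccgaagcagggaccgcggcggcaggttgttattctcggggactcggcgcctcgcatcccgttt

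The Zfp426 and Zfp266 windows share the unbroken 13-base stretch ggaagTGACGTCA, whose capitals are the cyclic AMP response element. It begins its capitals 47 bases before the start of Zfp426 and 34 bases before that of Zfp266. The stretch was sought after the windows were seen, as the longest that these 2 share, so both hold it by construction. Of 6766 tested genes with a single promoter entry, 10 held it on either strand (0.148%). Among the 155 Zfp genes with a single entry, tested or not, no other held it. These counts therefore do not show that the stretch is more frequent in Zfp genes. The element TGACGTCA alone was in 3 of the 121 windows of tested Zfp genes (2.48%) and in 3.56% of windows of all tested genes. The third was Zfp593, which did not pass the test. The Zfp367 window holds 3 copies of CCAAT, 2 of GGGCGG and 1 match to the E2F-type motifs TTTGGCGC or TTTCGCGC. CCAAT was in 43.8% of the 121 windows against 38.8% of all tested genes, GGGCGG in 48.8% against 65.2%, and the E2F-type motifs in 3.31% against 1.80%. The GATA-type motif AGATAA, which occurs 2 times in the Zfp426 window, was in 8.26% against 5.88%. The ETS-type motif CCGGAAG (21.5% against 21.1%), the NRF1 motif (4.13% against 2.36%), CACGTG (7.44% against 10.0%), TGAGTCA (2.48% against 3.16%) and TATAAA (10.7% against 6.13%) complete the search. AGATAA and TATAAA may overlap other motifs of the list. The median number of CG dinucleotides per window was 20 for tested Zfp genes and 22 for all tested genes. A match to letters shows neither binding nor a cause.

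With DHC, 24 of the 158 tested Zfp genes rose and 34 fell, and 100 did not pass the test. The test was limma with a trended variance on log2(RPKM + 1), two-sided, at a Benjamini-Hochberg adjusted p of 0.05 over all 10667 genes tested. Among all tested genes 18.4% were called higher and 16.1% lower, 34.5% in all. The Zfp shares were 15.2% higher and 21.5% lower, 36.7% in all. The total share of called Zfp genes was therefore near that of all genes, with the directions divided in the reverse order. No test was made of the set as a whole.

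By sign alone, 74 tested Zfp genes (46.8%) had a positive and 84 (53.2%) a negative log2 fold change, against 58.2% positive and 41.8% negative among all tested genes. The median log2 fold change was −0.014 for Zfp genes and 0.054 for all tested genes. The sign of the Zfp median was not stable. It was 0.00378 with the trend on exon length removed (51.3% of Zfp genes positive), 0.00691 without control replicate 1 (50.6%), 0.00438 without DHC replicate 3 (50.6%) and 0.0515 with a mean of 5 RPKM or more (54.4%), where all genes gave 58.3% to 58.4% positive. With libraries scaled by trimmed means, which take the median of all genes to −0.0045, the Zfp calls were 19 higher and 43 lower. All genes then gave 12.0% higher and 19.8% lower, so that 37.8% of all calls were higher instead of 53.4%. Of the Zfp calls 30.6% were higher under that scaling instead of 41.4%. Leaving out 1 library took the Zfp counts to between 14 and 22 higher (8.86% to 13.9%) and between 22 and 31 lower (13.9% to 19.6%). Calls fell among all tested genes as well, to between 11.3% and 16.4% higher and between 12.0% and 15.1% lower. The fewest higher Zfp calls were without control replicate 2 (14), control replicate 3 (15) or DHC replicate 2 (15), and the fewest lower Zfp calls without DHC replicate 3 (22).

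The 2 groups stood fully apart, with no overlap, in 92 of the 158 tested Zfp genes (58.2%), against 49.7% of all tested genes. In 42 of the 92 the DHC values were the higher and in 50 the lower. That split was not counted over all tested genes, of which 58.2% had a positive log2 fold change. Changes were mostly small. Of the called Zfp genes, 8 of those higher and 18 of those lower differed by at least 1.5-fold in mean RPKM. No such count was made over all tested genes, so these numbers show no direction particular to the set. Just 3 tested members, Zfp30, Zfp839 and Zfp608, reached 1 on the log2(RPKM + 1) scale, which understates changes of genes with low values. Among all 10667 tested genes 284 reached it, with 70 of them called higher and 189 called lower.

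**Figure D1:**
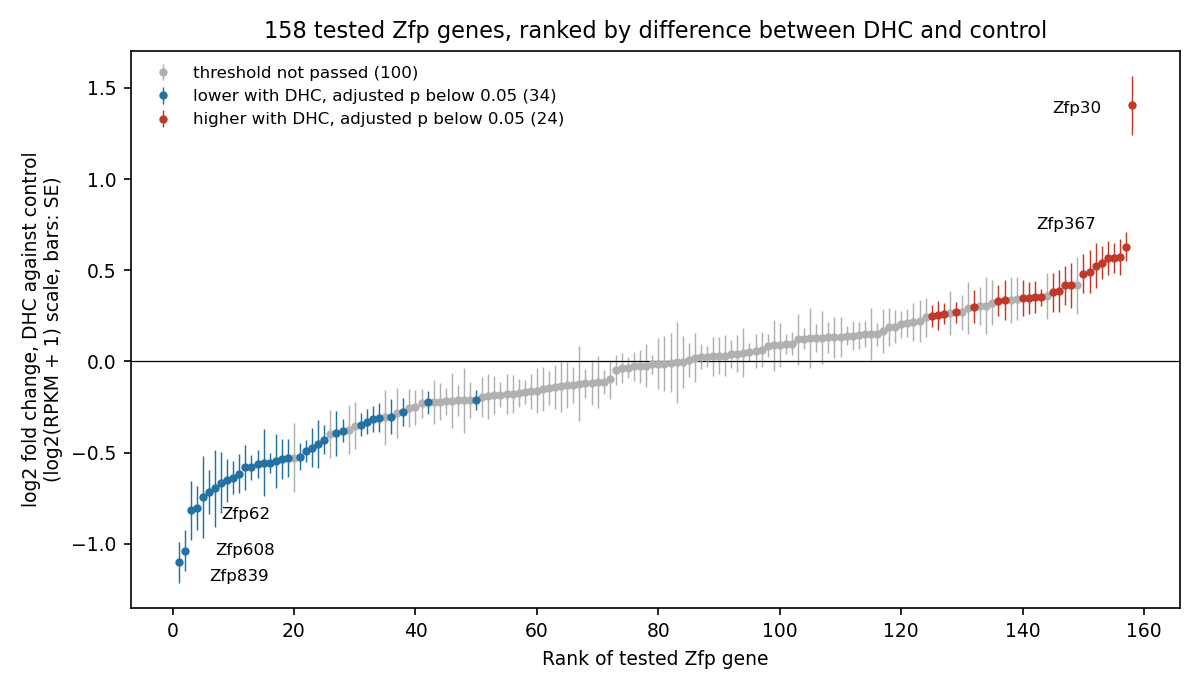
Log2 fold change of DHC against control for the 158 tested Zfp genes, on the log2(RPKM + 1) scale, in order of size, with bars of 1 SE. Red and blue points are the 24 genes higher and 34 lower at an adjusted p below 0.05, and Zfp30 stands apart at the top.

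The summed output of the set hardly moved. All 221 Zfp genes took 0.477%, 0.460% and 0.446% of the reads in control and 0.469%, 0.446% and 0.443% in DHC libraries, ranges that overlap. Levels were low, with a median of 5.02 RPKM over tested Zfp genes against 11.2 RPKM over all tested genes. Only 18 of the 221 had a mean of 20 RPKM or more.

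The gap to all genes in lower calls was widest at low levels, where the share of higher calls lay below that of all genes. The share of higher calls was slightly above that of all genes between 5 and 20 RPKM. From 20 RPKM upwards it was further above, with only 18 Zfp genes tested. Between 1 and 5 RPKM, 6 of 79 Zfp genes rose (7.59%) and 16 fell (20.3%), while among all 3202 tested genes in that range 12.7% rose and 10.5% fell. Between 5 and 20 RPKM, 13 of 61 rose (21.3%) and 14 fell (23.0%), against 20.3% and 16.4% of all genes there. From 20 RPKM upwards 5 of 18 rose (27.8%) and 4 fell (22.2%), against 21.5% and 20.6%. With only genes of at least 5 RPKM tested, 19 Zfp genes rose and 19 fell of 79 (24.1% each), against 22.1% and 19.1% of all genes. A filter on the mean keeps a low gene when 1 group lifts it, and 10 tested Zfp genes had a DHC mean and 4 a control mean below 1 RPKM. Of these, 3 were called lower and 2 higher. Among the 144 Zfp genes that reached 1 RPKM in the mean of both groups, 22 rose and 31 fell. The matching count over all genes was not made, so these numbers cannot be set beside a background.

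**Figure D2:**
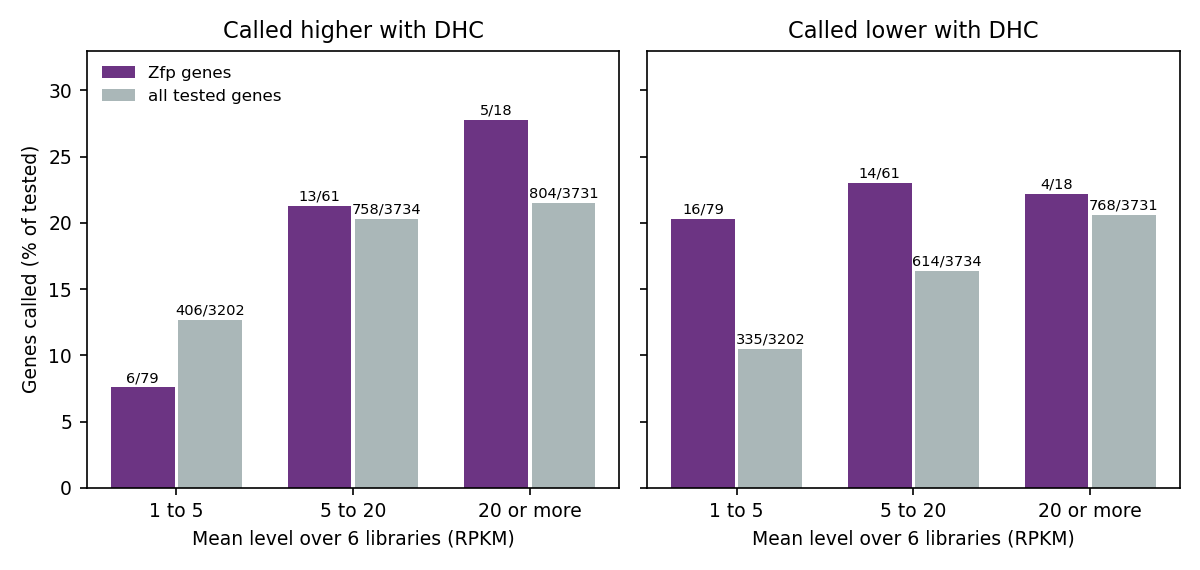
Share of tested genes called higher (left) or lower (right) with DHC, in percent, by mean level over the 6 libraries, for Zfp genes and for all tested genes. Numbers over the bars are genes called of genes tested, and the widest gap is for lower calls between 1 and 5 RPKM, 20.3% against 10.5%.

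Zfp30, a KRAB zinc finger gene on chromosome 1 (87563975 to 87568989, build Rnor_6.0), rose the most. It stood at 0.905, 0.873 and 0.974 RPKM in control libraries and 3.461, 5.517 and 3.499 RPKM in DHC libraries. All 3 DHC values lay above all 3 control values, and DHC replicate 2 was the highest. The ratio of means was 4.53 and the log2 fold change 1.40 ± 0.16 (SE, limma adjusted p = 0.000591), from 45 to 59 reads in control and 181 to 306 reads in DHC libraries. The gene passed the filter through the DHC group alone. The next gene on either side of Zfp30 on its strand rose as well. AABR07002868.2, which ends 988 bases before Zfp30, went from 1.05 ± 0.133 to 3.07 ± 0.920 RPKM (SD, n = 3, limma adjusted p = 0.003767). LOC102547059, 81218 bases beyond it, went from 12.4 ± 0.796 to 23.4 ± 0.423 RPKM (limma adjusted p = 7.225e-05). The part of transcription across gene borders in these values was not tested.

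After Zfp30 the rises were modest. Zfp367, a zinc finger factor on chromosome 17 (1652895 to 1672021), stood at 14.7, 12.6 and 12.3 RPKM in control and 22.13, 20.63 and 20.01 RPKM in DHC libraries, without overlap (log2 fold change 0.63 ± 0.08, limma adjusted p = 0.00096). Its neighbour Habp4, on the opposite strand 7606 bases away, went from 5.03 ± 0.541 to 11.5 ± 1.20 RPKM (limma adjusted p = 0.0002409). Zfp68, a KRAB gene, stood at 4.61, 3.77 and 3.93 against 7.11, 6.76 and 5.88 RPKM (1.61-fold). Zfp956 and Zfp709 rose 1.56- and 1.64-fold, each without overlap. Zfp213, which joins a SCAN domain to a KRAB box, went from 1.03 ± 0.156 to 1.92 ± 0.230 RPKM, and did not pass without both libraries numbered 1 (limma adjusted p = 0.0800). Zfp868 rose 1.43-fold and Zfp664 1.41-fold. Zfp398, a KRAB gene, went from 0.795 ± 0.115 to 1.40 ± 0.164 RPKM and passed the filter through the DHC group alone. Its call (limma adjusted p = 0.0348) ended without any 1 control library, DHC replicate 2 or DHC replicate 3 (0.0665 to 0.109), and under scaling by trimmed means (0.0501).

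Zfp839 (chromosome 6, 135270871 to 135287281) fell the most on the log2 scale. Its values were 4.05, 3.52 and 3.64 RPKM in control and 1.36, 0.988 and 1.28 RPKM in DHC libraries, a fall of 3.08-fold (log2 fold change −1.10 ± 0.11, limma adjusted p = 0.000331). The groups lay far apart, with 281 to 342 reads against 85 to 111. Zfp608 (chromosome 18, 49829650 to 49937522), known as a repressor of the Rag genes in developing T cells, stood at 2.82, 2.70 and 2.29 RPKM in control and 0.744, 0.816 and 0.700 RPKM in DHC libraries. That is a fall of 3.46-fold (−1.04 ± 0.11, limma adjusted p = 0.00046), and the gene passed the filter through the control group alone.

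Zfp526 also passed through the control group alone, and fell 2.71-fold from 2.13 ± 0.328 to 0.784 ± 0.056 RPKM. Exons of Zfp526 overlap those of Gsk3a on the other strand, which fell from 23.9 to 20.9 RPKM (limma adjusted p = 0.04067), and without a stated strand setting their shared reads cannot be told apart. Zfp62 stood at 5.63, 3.95 and 3.49 against 2.20, 1.64 and 2.19 RPKM, a fall of 2.17-fold. Zfp189, a KRAB gene, fell from 4.62 ± 0.199 to 2.45 ± 0.519 RPKM.

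The calls of 3 further genes among the 10 largest falls were fragile. Zfp347, a KRAB gene, stood at 12.2, 8.52 and 6.75 against 6.54, 4.84 and 3.70 RPKM, so the groups nearly touch. Its call (limma adjusted p = 0.0374) ended without control replicate 1 or 2 or DHC replicate 2 or 3 (0.0776 to 0.104). Zfp458, likewise a KRAB gene, fell 2.11-fold with a call (0.0377) that ended without any library but control replicate 3 (0.0585 to 0.104). Zfp949 fell 1.78-fold with a call (0.0194) that ended without control replicate 1 or 2 or DHC replicate 2 or 3 (0.0530 to 0.0686). All 3 of these calls also ended with no filter on low values, at adjusted p of 0.103, 0.0985 and 0.0608.

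**Figure D3:**
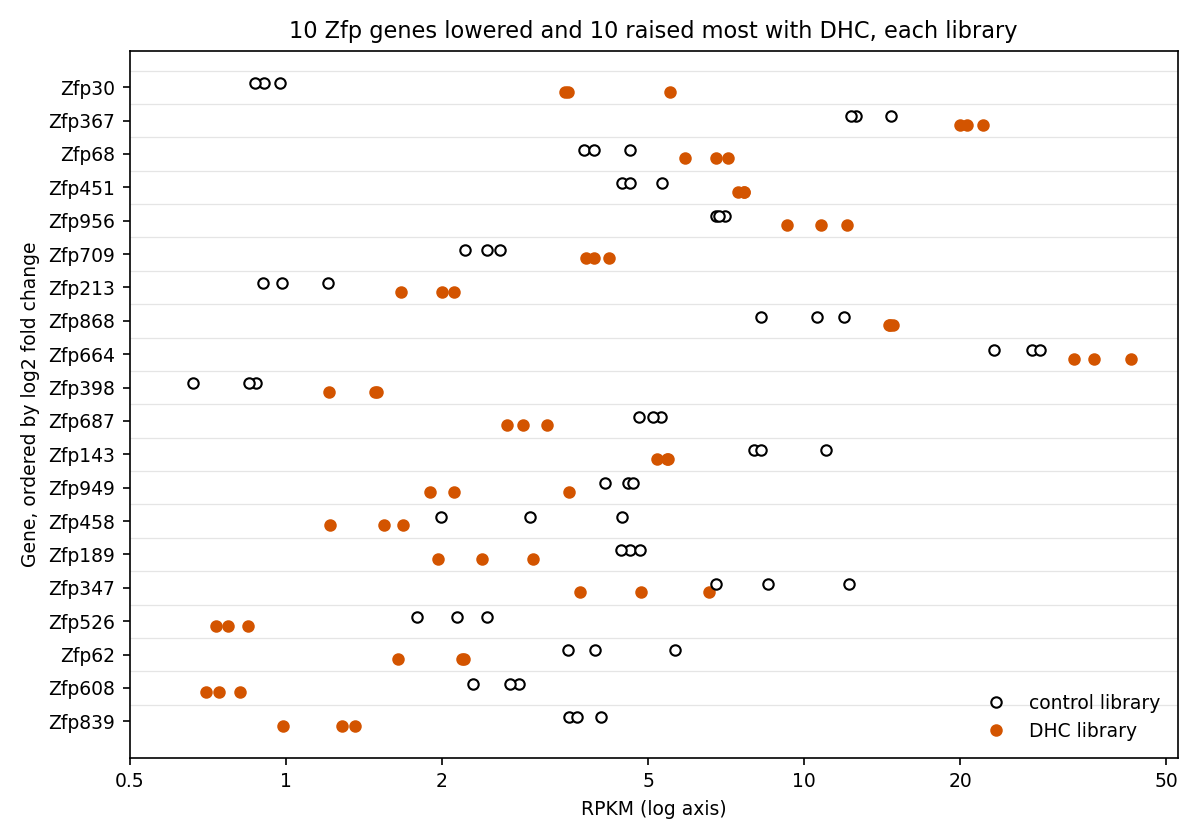
RPKM, on a log axis, of the 10 Zfp genes raised and the 10 lowered most among called genes whose groups do not overlap, with 1 point for each of the 3 control (open) and 3 DHC (filled) libraries. The Zfp30, Zfp839, Zfp608 and Zfp526 groups lie well apart, whereas those of Zfp347 and Zfp458 nearly meet.

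A list of 32 DNA-binding regulators without a KRAB box had 29 members in the table and 22 tested. Of these 4 rose (18.2%) and 8 fell (36.4%), with a median log2 fold change of −0.14, beside the 18.4% and 16.1% of all tested genes. The list was chosen with earlier results of these data known, so its shares are not independent of them. Zfp143, an activator of small nuclear RNA genes that also sits at chromatin loop anchors, fell from 11.02, 8.001 and 8.26 RPKM to 5.44, 5.19 and 5.47 RPKM (log2 fold change −0.65 ± 0.12, limma adjusted p = 0.004531). Every DHC library lay below every control library, and the control libraries spread more. Zfp687, which forms a transcription complex with Zfp592 and Zmynd8, fell from 5.06 ± 0.248 to 2.90 ± 0.260 RPKM. Zfp384, a factor known from fusion genes of leukemia, fell from 14.9 ± 0.769 to 9.77 ± 0.799 RPKM. Zfp335, a subunit of histone H3 methyltransferase complexes, fell 1.32-fold. Zfp219, a cofactor of Sox9, fell 1.28-fold, and its exons overlap those of Arhgef40 on the other strand, which stood at 1.73 and 1.38 RPKM (limma adjusted p = 0.176).

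The other 2 falls of this list, besides Zfp608, were smaller and less steady. Zfp217, a cofactor of the CoREST repressor complex, fell 1.17-fold with a call (limma adjusted p = 0.0299) that ended without any library but DHC replicate 1 (0.0634 to 0.105). Zfp609, a partner of the cohesin loader and the Integrator complex, fell 1.22-fold with a call (0.0279) that ended without control replicate 1 or 2 or DHC replicate 2 or 3 (0.0611 to 0.0970), and with no filter on low values (0.0557).

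Besides Zfp367, the rises of this list were those of Zfp131, Zfp148 and Zfp292. Zfp131, a BTB-domain protein, was the most abundant Zfp gene, at 88.6, 80.8 and 79.2 RPKM in control and 104.7, 98.1 and 97.4 RPKM in DHC libraries (log2 fold change 0.27 ± 0.06, limma adjusted p = 0.009395). The groups did not overlap. Zfp148, known as ZBP-89, rose 1.24-fold with a call (0.0375) that ended without control replicate 2 or 3 or DHC replicate 1 or 2 (0.0628 to 0.107), with no filter (0.0861), and under scaling by trimmed means (0.0746) or median-of-ratios factors (0.0691). Zfp292 rose 1.31-fold, but did not pass without control replicate 2 (0.0544) or control replicate 3 (0.0589). Without either of these 2 control libraries the list had 2 higher calls instead of 4.

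The 12 listed members that act on RNA, ribosomes, SUMO or ubiquitin were all tested, with 3 higher (25%), 1 lower (8.33%) and a median log2 fold change of 0.12. The 33.3% called is near the 34.5% of all tested genes, of which 18.4% rose and 16.1% fell. This list too was chosen with earlier results of these data known. The listed members lay higher, at a median of 22.5 RPKM against 11.2 RPKM over all tested genes. From 20 RPKM upwards 21.5% of all tested genes rose and 20.6% fell. Zfp451, a SUMO ligase, rose from 5.32, 4.46 and 4.61 RPKM to 7.64, 7.65 and 7.44 RPKM (0.57 ± 0.08, limma adjusted p = 0.001765). Zfp326, part of the DBIRD complex that links splicing to elongation, stood at 24.7, 25.2 and 24.2 against 32.3, 31.5 and 31.6 RPKM (0.35 ± 0.05, limma adjusted p = 0.00121). In both genes the DHC libraries were close together and above every control library. Zfp106, an RNA-binding protein, rose from 41.0 ± 2.69 to 49.3 ± 0.183 RPKM. Zfp91, a ubiquitin ligase of the noncanonical NF-kB pathway, fell 1.16-fold, from 49.1 ± 1.52 to 42.3 ± 2.26 RPKM. Its call (limma adjusted p = 0.0216) ended without control replicate 1 or 3 or DHC replicate 2 or 3 (0.0543 to 0.0848).

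Several of the most abundant members did not pass. Zfp207, the spindle protein BuGZ, was at 42.0 ± 5.24 and 43.7 ± 2.92 RPKM (limma adjusted p = 0.653), Zfp330 at 43.0 ± 1.15 and 42.6 ± 1.91 RPKM (0.836), Zfp830, a splicing factor, at 35.8 ± 1.15 and 38.4 ± 2.00 RPKM (0.217) and Zfp212 at 34.1 ± 1.48 and 35.4 ± 0.524 RPKM (0.459). The signs of the Zfp207, Zfp330 and Zfp212 differences reversed under some alternatives. A miss of the threshold does not show that these levels were equal.

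The remaining 180 Zfp genes, on neither list, had 124 tested, of which 17 rose (13.7%) and 25 fell (20.2%), with a median log2 fold change of −0.019. Zfp24, a SCAN-domain repressor of Vegfa (chromosome 18, 15914399 to 15921734), had the lowest p of all members. Its values were 54.1, 51.7 and 52.2 RPKM in control and 37.8, 34.3 and 34.6 RPKM in DHC libraries (log2 fold change −0.56 ± 0.05, limma adjusted p = 0.000279). Zfp169, a KRAB gene, fell from 15.3 ± 0.731 to 9.94 ± 0.613 RPKM, and Zfp513 from 27.97 ± 1.69 to 19.6 ± 0.335 RPKM. Zfp445 and Zfp57, the KRAB pair known for guarding imprinted genes, were looked up after their values were seen. Zfp445 fell from 5.51 ± 0.495 to 3.51 ± 0.516 RPKM (limma adjusted p = 0.008889), while Zfp57 was at 1.46 ± 0.320 and 1.02 ± 0.117 RPKM (0.143) and overlaps Mog on the other strand.

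Of the 63 members below the filter, 20 had a mean between 0.5 and 1 RPKM and 43 less. The first gene inside the filter was Zfp54 at a mean of 1.0 RPKM and the first outside it Zfp524 at 0.973 RPKM. The 3 largest ratios between 0.5 and 1 RPKM were falls. The next was a rise of nearly the same size as the third, 2.15-fold for Zfp867 against 2.18-fold for Zfp51. Zfp467 had 140, 161 and 184 reads in control and 41, 35 and 58 in DHC libraries. Zfp672 had 90, 118 and 131 against 38, 56 and 40 reads, and Zfp51 had 89, 78 and 137 against 43, 56 and 34 reads. In each of these 3 genes, and in Zfp867, the groups did not overlap, and none was tested. The share without overlap was not counted over genes below the filter, so these genes show no direction particular to the set.

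Members lay on every autosome and on the X chromosome, with 57 of the 221 on chromosome 1. In all 119 had another member within 500 kb and 102 stood alone. Of 78 tested members with a near neighbour, 14 rose and 13 fell (34.6% called). Of 80 without a near neighbour, 10 rose and 21 fell (38.8%). Both totals were near the 34.5% of all tested genes, of which 18.4% rose and 16.1% fell. Falls outnumbered rises only among members without a near neighbour, and this difference was not tested. Adjacent members did not share a direction as a rule. Of 34 neighbouring pairs with both genes tested, 18 had fold changes of the same sign and 16 of opposite sign. Both genes were called in 5 pairs, of which 1 moved together and 4 apart.

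These 5 pairs were named after their values were seen. Zfp426 rose from 1.77 ± 0.0615 to 2.61 ± 0.322 RPKM and Zfp266 from 4.48 ± 0.322 to 5.99 ± 0.673 RPKM, with 19038 bases between them on chromosome 8. Their promoter windows are printed above. Zfp426 did not pass without any 1 control library or DHC replicate 1 or 2 (limma adjusted p = 0.0600 to 0.105), nor Zfp266 without control replicate 2 or 3 or DHC replicate 1 or 2 (0.0501 to 0.0846). On chromosome 18, Zfp35 went from 6.34 ± 0.964 to 8.21 ± 0.639 RPKM, 15.6 kb from Zfp24, which fell. On chromosome 16, Zfp964 fell from 3.34 ± 0.428 to 2.12 ± 0.121 RPKM and Zfp868, 45.1 kb away, rose from 10.2 ± 1.87 to 14.7 ± 0.128 RPKM. On chromosome 4, Zfp398 rose and Zfp282, a repressor first described on a retroviral promoter, fell 1.30-fold, with 8.68 kb between them. On chromosome 7, Zfp472 rose 1.34-fold and Zfp952, 29.2 kb away, fell 1.47-fold. Of the opposite pairs, the Zfp964 and Zfp868 pair lost only the Zfp964 call, without control replicate 2 (0.0501) or both libraries numbered 1 (0.0755). In each of the other 3 pairs a gene did not pass without at least 4 of the 6 libraries in turn, namely Zfp35 (0.118 to 0.141), Zfp282 (0.0532 to 0.0739), Zfp472 (0.0692 to 0.1) and Zfp952 (0.0595 to 0.106). With no filter on low values the Zfp964 and Zfp868 pair alone kept both calls. Zfp426 (0.0577), Zfp266 (0.0653), Zfp35 (0.107), Zfp282 (0.0506), Zfp472 (0.0869) and Zfp952 (0.0854) then no longer passed. The Zfp35 call also ended under scaling by trimmed means (0.0856) or median-of-ratios factors (0.0790), with a filter of 0.5 RPKM (0.0529) and with a replicate block (0.0704). The Zfp472 call also ended under both scalings (0.0587 and 0.0560).

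**Figure D4:**
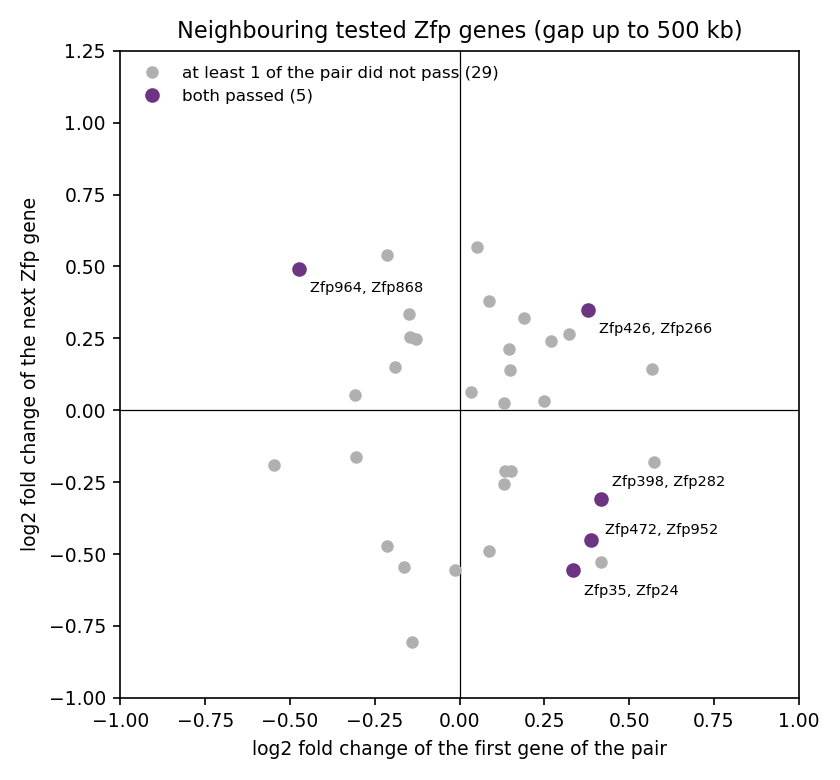
Log2 fold changes of the 34 neighbouring pairs of tested Zfp genes with a gap of up to 500 kb, the first gene of each pair on the horizontal and the next on the vertical axis. Purple points are the 5 pairs with both genes called, 4 of them in the quadrants of opposite sign.

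The genes that carry out silencing for KRAB proteins were taken from a list of 32, of which 30 had a row and 28 were tested. With DHC 8 rose (28.6%) and 7 fell (25%), 53.6% in all against 34.5% of all tested genes (18.4% and 16.1%), with a median log2 fold change of 0.064. The levels are unlike, with a median of 32.5 RPKM over the tested listed genes and 11.2 RPKM over all tested genes. From 20 RPKM upwards 21.5% of all tested genes rose and 20.6% fell. The list was also chosen with earlier results of these data known. Under scaling by trimmed means 5 of the listed genes rose and 9 fell, and without control replicate 3 the higher calls were 5. Trim28, the scaffold bound by KRAB boxes, went from 55.8 ± 1.92 to 64.7 ± 0.991 RPKM (limma adjusted p = 0.009971), a call that ended under that scaling (0.0510). Setdb1, the histone methyltransferase that Trim28 recruits, was at 30.2 ± 1.55 and 27.3 ± 0.982 RPKM (0.0978), and passed as lower with limma-voom (0.00784) and under scaling by trimmed means (0.0246) or by median-of-ratios factors (0.0308). Chd4, the remodelling ATPase of the NuRD complex, fell from 288.2 ± 6.71 to 186.1 ± 5.36 RPKM (limma adjusted p = 4.787e-05) and Dnmt3a, a DNA methyltransferase, 1.54-fold. Cbx5, a heterochromatin protein, rose from 103.7 ± 3.26 to 142.7 ± 5.15 RPKM and the deacetylase gene Hdac2 1.46-fold. Calls of Chd4, Dnmt3a, Cbx5 and Hdac2 held when each library was left out in turn.

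**Figure D5:**
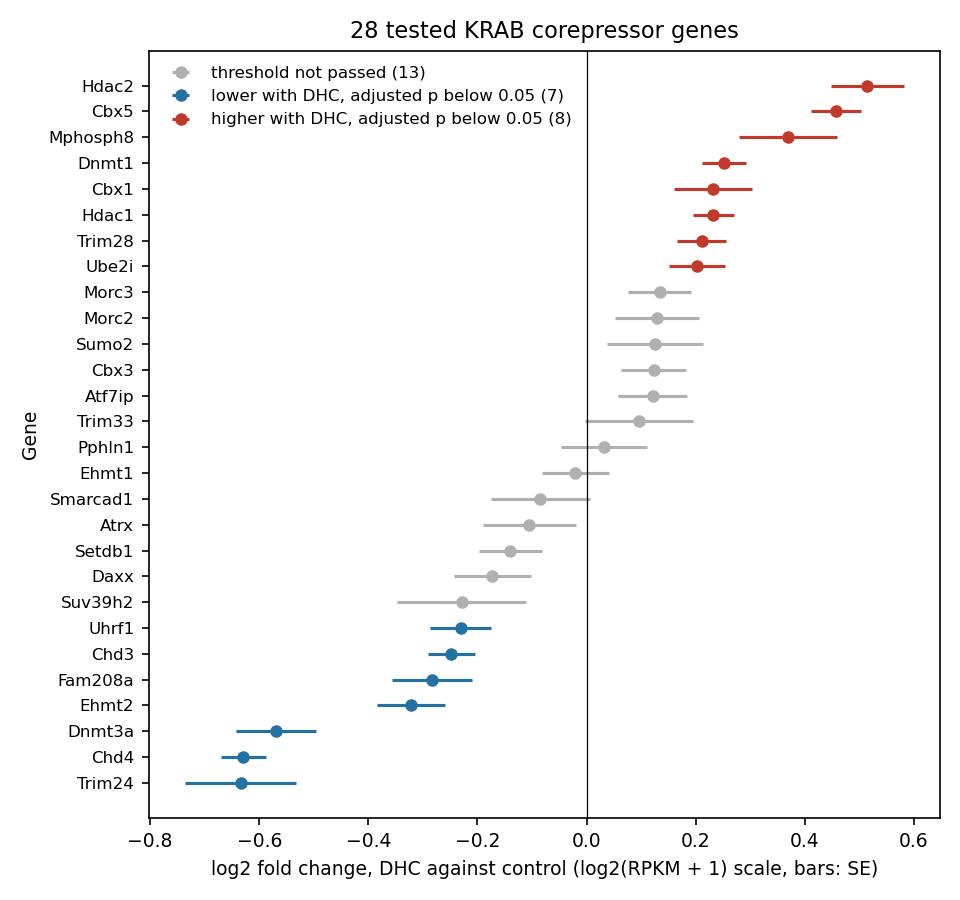
Log2 fold change of DHC against control, on the log2(RPKM + 1) scale with bars of 1 SE, for the 28 tested genes that act with KRAB proteins. The 8 genes called higher run up to Hdac2 and the 7 called lower down to Trim24.

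Other zinc finger genes showed calls in both directions as well. Of 39 tested Znf, Zbtb, Zscan and Zkscan genes (56 in the table) 10 rose (25.6%) and 13 fell (33.3%), against 18.4% and 16.1% of all tested genes. They were taken by the start of the symbol alone, so the 39 include Zbtb8os, which is not a zinc finger gene and was not called. Of 15 tested Zc3h genes (17 in the table), most of which carry CCCH fingers that bind RNA, 4 rose (26.7%) and 2 fell (13.3%). Zc3hc1, taken in by its symbol and not called, is not of that class. Differences between these families and the Zfp genes were not tested. Some genes listed here as Zfp are BTB or other proteins under older symbols, such as Zfp295 for Zbtb21, Zfp161 for Zbtb14 and Zfp259 for Zpr1.

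Exons of 16 of the 221 members overlap those of another gene. Of these 16, 12 were tested and 5 were called, while 34.5% of all tested genes were called. Besides Zfp526 and Zfp219 the called genes were Zfp276 and Zfp142, each overlapping a gene on the other strand. The last was Zfp324, which shares exons with Zfp446 on the same strand. Counting across all alternatives of the processing other than the stricter filter and the stricter threshold, 31 of the 58 called Zfp genes passed in the same direction in all 16, 11 higher and 20 lower. They include Zfp30, Zfp367, Zfp68, Zfp451, Zfp326 and Zfp131 among the higher and Zfp839, Zfp608, Zfp62, Zfp526, Zfp143, Zfp687, Zfp384 and Zfp24 among the lower. The same count was not made over all called genes, so it shows neither a steadiness nor a direction particular to the Zfp genes. Zfp30 passed the filter through the DHC group alone, and Zfp608 and Zfp526 through the control group alone.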

How the data were processed

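RNA of 3 control and 3 DHC libraries was sequenced. Per the submitters' processing notes, the authors named the build Rnor_6.0, edgeR 3.12.1, Subread 1.5.1 with featureCounts, and Trimmomatic 0.36. For aligner, annotation release and strand setting the sources used here give nothing. The deposited values are RPKM with summed exon lengths, per the file headers and the values themselves. RPKM times length gave whole reads within 0.01 for all values, so reads and library totals were recovered. RPKM carries no scaling between libraries beyond the total.

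A test of counts had been planned; because the unit is RPKM, limma 3.58.1 in R 4.3.3 was used on log2(RPKM + 1), with group as the only term, for genes averaging 1 RPKM or more. The script was first tested on simulated data. Fold values are ratios of mean RPKM. Named genes were the 10 called genes with the largest changes in each direction without overlap, the 6 lowest p-values, the 8 highest levels, called members of the lists, 3 genes below the filter and 6 KRAB partner genes. The members and lists were chosen with earlier results of these data known. A split by KRAB box needs protein sequences and was not made. Same-numbered libraries did not deviate together in all 3 pairs, so numbers were not treated as pairs. Alternatives covered scaling, filters, pseudocounts, limma-voom, exon length, a replicate block and leaving out libraries.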

Additional observations from a re-analysis of the deposited data

How the results depend on the processing

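Scaling by trimmed means moved the median log2 fold change of Zfp genes to −0.0682 and of all tested genes to −0.0045, with 1285 of all genes higher and 5 KRAB partner genes higher. Median-of-ratios factors gave medians of −0.0607 and 0.00407, and limma-voom −0.0883 and −0.00443. With no filter the median of all genes was 0.021. With a mean of at least 5 RPKM, 19 Zfp genes were lower and their median was 0.0515. At an adjusted p of 0.01, 9 Zfp genes were higher and 19 lower (all genes 873 and 1076), with 5 KRAB partner genes higher, 0 lower on the RNA list (1 at 0.05 with limma) and 2 higher among DNA-binding regulators. Leaving out each library in turn gave 14 to 22 higher and 22 to 31 lower Zfp genes, 1201 (without DHC replicate 2) to 1746 higher among all genes, 5 to 8 higher KRAB partner genes, 2 to 4 higher DNA-binding regulators and 0 to 1 lower on the RNA list. The cause was not tested. Reversed signs were those of Zfp207 (−0.00545 by trimmed means, −0.00194 by limma-voom, −0.023 to 0.151 with a library left out), Zfp212 (−0.0132 by trimmed means, −0.0141 by limma-voom, −0.00375 by median-of-ratios factors) and Zfp330 (0.00304 with the length trend removed, −0.0511 to 0.00916 with a library left out, 0.00627 without both libraries numbered 1). With a replicate block, 25 Zfp genes were higher (15.8%) and 35 lower (22.2%), beside 22.7% and 17.9% of all tested genes, and 56 of the 58 Zfp calls were shared. Deviations of same-numbered libraries correlated at 0.228, −0.0495 and 0.0828 over tested genes and at 0.351, 0.0315 and 0.131 over Zfp genes, where a differently numbered pair reached 0.276, so the numbers are not shown to pair cultures. Other Zfp counts stayed within 1.5 times. A quasi-likelihood test of recovered reads was not run. Low read numbers limit the 63 genes below the filter.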
